A study of Mus musculus with 5 samples.

Results

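The proteasome genes of Ba/F3 cells were examined in 5 RNA sequencing libraries. A gene was taken where its symbol began with PSMA to PSMG followed by a number and its description did not call it a pseudogene. This gave 48 genes of the 50867 in the deposited table: 19 of the core particle (PSMA and PSMB), 20 of the regulatory cap (PSMC and PSMD), 4 activators (PSME), and 5 others, which are the inhibitor PSMF1 and the assembly chaperones PSMG1 to PSMG4. Ba/F3 is a mouse pro-B cell line that needs interleukin-3, and every library came from this line after infection with lentivirus. The groups are labelled PMSCV, S_PXT1, S_PXT1_K118R, WT and WT_K118R, with 1 library each. PMSCV is the name of a vector and serves as the reference, and K118R names a lysine to arginine substitution. The labels do not say which promoters drove the constructs, whether the cells were 1 clone, or what S and WT stand for. With 1 library a group no difference has a replicate check, so conditions were not tested against each other and p-values are left out.

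The proteasome is the protease that degrades proteins marked with ubiquitin. Its core is a barrel of alpha rings, which form the gate, and beta rings, which hold the cutting sites. The cap binds ubiquitin chains, removes them, and unfolds the substrate with a ring of ATPases. Activators of the PSME family bind the same ends of the barrel and open the gate without a need for ubiquitin: PSME1 and PSME2 form the interferon-induced 11S ring, PSME3 (REG gamma) forms a nuclear ring, and PSME4 (PA200) is a large single-chain nuclear cap.

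The table lists human gene models, although the cells are mouse. All 48 symbols had a mouse counterpart of the same name in RefSeq's mouse gene table (GRCm38.p6). How many reads of a mouse transcript are counted on a human model is not known, so counts are read between libraries and not between genes. The libraries held between 250409 (S_PXT1_K118R) and 351693 (WT) counts. CPM is the count scaled to library size, here with composition factors from TMM (trimmed mean of M values), and 1 count was worth 2.92 to 3.93 CPM. Of 13 pro-B markers, 6 had 0 counts in all libraries (CD79A, CD79B, IGLL1, VPREB1, RAG1 and IL3RA) and the list summed to between 0 and 31 counts, so the labelled cell type could not be checked in this table. Markers of tissues that Ba/F3 is not part of were counted in PMSCV, WT and WT_K118R. The 8 squamous markers summed to 252, 965 and 371 counts there and to 0 in both S_PXT1 libraries, and the 5 prostate markers to 144, 149 and 144 counts against 1 in S_PXT1 and 0 in S_PXT1_K118R. In PMSCV, WT and WT_K118R the 6 plasma cell markers summed to 657, 458 and 22 counts. The 5 smooth muscle markers summed to 71, 295 and 4 there, and the 5 fibroblast markers to 437, 453 and 587. WT and WT_K118R therefore also differed in these reads. The 29 markers of 5 such tissues summed to 1561, 2320 and 1128 counts, against 191 in S_PXT1 and 197 in S_PXT1_K118R, where the collagen and matrix genes of the fibroblast list supplied 187 and 195.

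A few genes carried most of the proteasome counts. PSMB7 and PSMA5 together took 80.3% of the counts of the core over the 5 libraries, PSMD14 and PSMD11 took 56.5% of those of the cap, and PSME3 took 85.9% of those of the activators. Of the 48 genes, 11 had a mean of at least 20 counts (called well covered), 23 had a mean of 5 to under 20, and 14 had less, among them PSMA8, PSMB9 and PSMB11 with 0 counts in all libraries. A count of 0 was set to a floor of 3 counts where a threshold was applied. Per length, the mean of the deposited FPKM values (counts relative to gene length and to library size) over the 5 libraries was 473 for PSMB7, 174 for PSME3 and 162 for PSMA5. In the alpha ring, whose subunits enter the barrel in equal number, the other members with counts had mean FPKM levels of 1.94 for PSMA6 to 18.0 for PSMA7. These levels are those of reads placed on human models and are not transcript levels of the mouse genes.

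**Figure D1:**
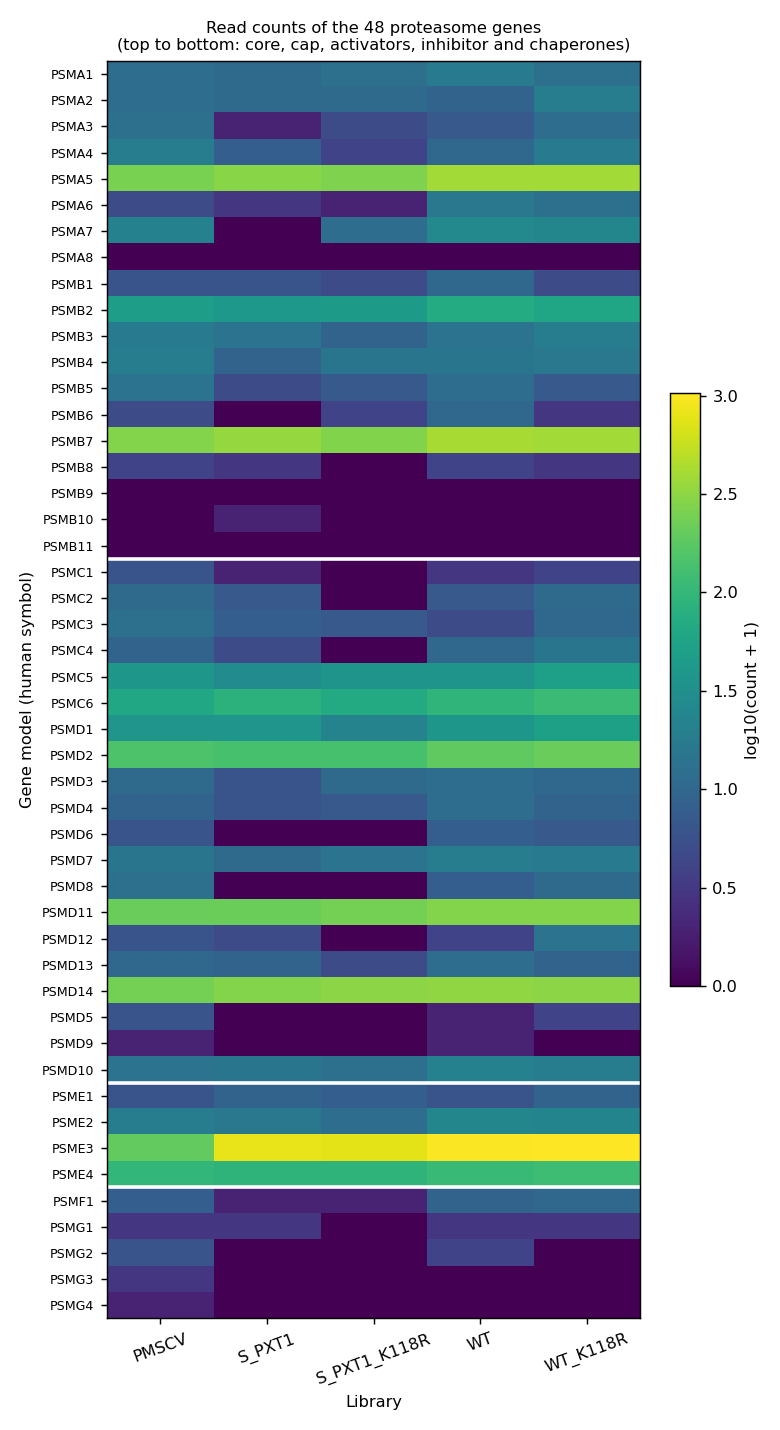
Read counts of the 48 genes (rows) in the 5 libraries (columns), coloured by log10(count + 1), with white lines between core, cap, activators, and inhibitor with assembly chaperones. PSMA5, PSMB7, PSMD11, PSMD14 and PSME3 stand out in every library, PSME3 has 194 counts in PMSCV against 781 to 1025 elsewhere, and dark cells are most frequent in the S_PXT1 and S_PXT1_K118R columns.

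Of the well-covered genes, the activator PSME3 differed most between libraries. PSME3 (ENSG00000131467) is listed on chromosome 17, 42824385 to 42843758, plus strand, in human coordinates of a build that the deposited table does not name. It had 194 counts with PMSCV, 814 with S_PXT1, 781 with S_PXT1_K118R, 994 with WT and 1025 with WT_K118R. In CPM these were 690, 3173, 3070, 2907 and 3038. The PMSCV library was low and the other 4 lay close together, with the highest 1.09-fold above the lowest and a mean of 3047 CPM with an SD of 110 over 4 libraries of different constructs. Against PMSCV the fold was 4.60 with S_PXT1 (95% interval 3.93 to 5.41), 4.45 with S_PXT1_K118R (3.80 to 5.24), 4.21 with WT (3.61 to 4.94) and 4.40 with WT_K118R (3.77 to 5.16). These 4 folds share the PMSCV library, so they are not 4 measurements of its low value. All intervals are exact for a ratio of 2 counts and cover counting error only. In bulk RNA, fewer cells with a transcript and less of it per cell cannot be told apart.

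Between the constructs PSME3 differed little. For S_PXT1 over WT the fold was 1.09 (0.99 to 1.20), 0.97 for S_PXT1_K118R over S_PXT1 (0.88 to 1.07) and 1.05 for WT_K118R over WT (0.96 to 1.14). Each of these intervals includes 1 and leaves out differences beyond 1.2-fold up or 0.88-fold down, as far as counting error goes.

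The other activators did not share the low value in PMSCV. PSME4 had 98, 90, 89, 107 and 117 counts in PMSCV, S_PXT1, S_PXT1_K118R, WT and WT_K118R, or 348, 351, 350, 313 and 347 CPM, so that the highest was 1.12-fold above the lowest. PSME2 had 18, 15, 11, 23 and 22 counts and PSME1 had 5, 8, 7, 5 and 8, both with intervals too wide to order the libraries. Without PSME3 the activators summed to 121, 113, 107, 135 and 147 counts. Their fold over PMSCV was then 1.02 with S_PXT1 (0.79 to 1.33) and 0.92 with WT (0.71 to 1.18), against 3.23 (2.84 to 3.68) and 2.95 (2.60 to 3.35) with PSME3 included. PSME3 took 61.6% of the activator counts in PMSCV and 87.5% to 88.0% in the other 4 libraries.

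**Figure D2:**
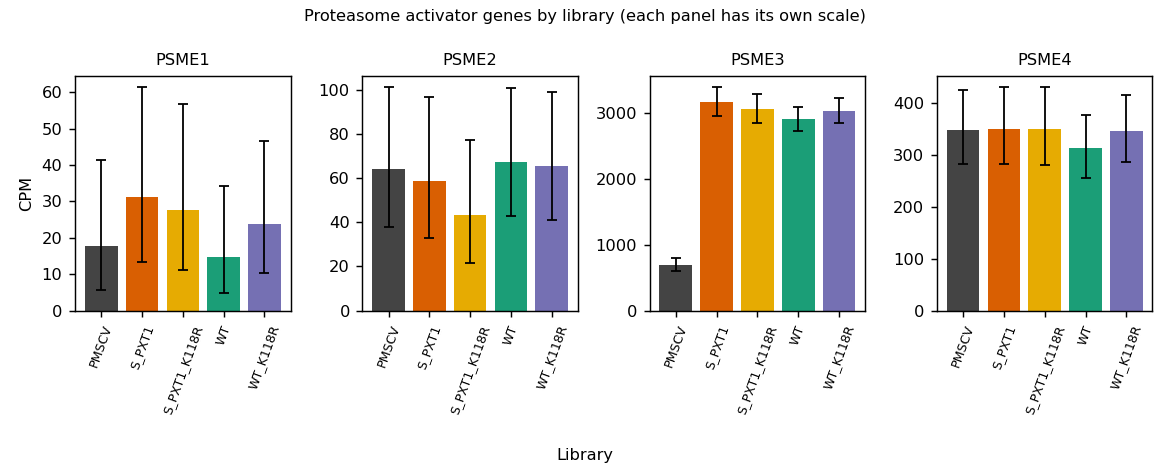
Level of each PSME activator gene in CPM (y axis, own scale in each panel) in the 5 libraries (x axis), with exact 95% Poisson intervals as bars. PSME3 is at 690 CPM in PMSCV and 2907 to 3173 CPM in the others, while PSME4 lies between 313 and 351 CPM in all 5 libraries.

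The one gene model that overlaps PSME3 is BECN1, an autophagy gene on the opposite strand. It had 66 counts with PMSCV, 59 with S_PXT1, 57 with S_PXT1_K118R, 76 with WT and 87 with WT_K118R, between 222 and 258 CPM. The strand setting of the counting was not given in the sources used here, so reads of the 2 genes in their shared stretch may not be separated. A mean of at least 20 counts was reached by 1547 genes, of which 15 were at least 2-fold lower in PMSCV than in each other library (0.97%) and 4 were at least 2-fold higher. Ranked by the smallest of its 4 folds over PMSCV, PSME3 was number 8 of the 1547 genes and number 1 of the 505 genes whose mean reached 100 counts. PSME3 was the 1 proteasome gene among the 15. The means used as minimum include the libraries other than PMSCV. A gene low in PMSCV alone therefore reaches them more easily than one high there alone. The 15 and the 4 are thus not an even comparison.

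The well-covered core genes differed by less than 2-fold between any pair of libraries. PSMA5, an alpha ring subunit (chromosome 1, 109399031 to 109426427), had 254 counts with PMSCV, 298 with S_PXT1, 267 with S_PXT1_K118R, 392 with WT and 387 with WT_K118R, or 903, 1162, 1050, 1146 and 1147 CPM. PMSCV was the lowest, and the fold over it was 1.29 with S_PXT1 (1.08 to 1.53) and 1.27 with WT (1.08 to 1.49). PSMB7, the precursor of the beta subunit with trypsin-like activity (chromosome 9, 124353466 to 124415444), had 282, 343, 275, 418 and 392 counts in the same order, or 1003, 1337, 1081, 1222 and 1162 CPM. S_PXT1 was the highest, 1.33-fold over PMSCV (1.14 to 1.57), and S_PXT1_K118R was below it at 0.81-fold (0.69 to 0.95). For WT_K118R over WT the fold of PSMB7 was 0.95 (0.83 to 1.09), and whether the K118R folds differ between the backgrounds was not tested. PSMB2, another beta subunit, had 48, 39, 43, 70 and 58 counts, and its 5 intervals overlapped.

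The summed core differed little between the libraries compared. All 19 core genes summed to 720 counts with PMSCV, 743 with S_PXT1, 661 with S_PXT1_K118R, 1018 with WT and 976 with WT_K118R. The fold was 1.13 for S_PXT1 over PMSCV (1.02 to 1.26), 1.16 for WT over PMSCV (1.06 to 1.28), 0.97 for S_PXT1 over WT (0.88 to 1.07), 0.90 for S_PXT1_K118R over S_PXT1 (0.81 to 0.998) and 0.97 for WT_K118R over WT (0.89 to 1.06). The well-covered core genes alone were at 1.28 with S_PXT1 (1.14 to 1.43) and 1.24 with WT (1.11 to 1.38) over PMSCV. All 1547 well-covered genes of the table summed to 1.17-fold and 1.11-fold of PMSCV. Core genes with a mean under 20 counts were at 0.51 and 0.83, beside 0.51 and 0.93 for all genes under it. A rise of the core beyond that of all genes was not tested. Scaled by total counts, both intervals of all 19 core genes over PMSCV include 1. They are 0.958 to 1.18 with S_PXT1 and 0.974 to 1.18 with WT.

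Genes of the immunoproteasome, a form of the core with its own beta subunits, were barely counted. PSMB8, its chymotrypsin-like subunit, had 3 counts with PMSCV, 2 with S_PXT1, 0 with S_PXT1_K118R, 3 with WT and 2 with WT_K118R. PSMB10 had 1 count in S_PXT1 and 0 elsewhere, and PSMB9 and the thymus subunit PSMB11 had 0 in all libraries. No difference among these could be seen at this depth, and a low count of a mouse transcript on a human model does not measure how much of it the cells held.

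The well-covered cap genes also differed by less than 2-fold between any pair of libraries. PSMD14, the deubiquitinase of the lid (chromosome 2, 161308038 to 161411717), had 240 counts with PMSCV, 282 with S_PXT1, 303 with S_PXT1_K118R, 324 with WT and 310 with WT_K118R, or 853, 1099, 1191, 948 and 919 CPM. The S_PXT1 pair was higher than the other 3, with folds over PMSCV of 1.29 (1.08 to 1.54) for S_PXT1 and 1.40 (1.17 to 1.66) for S_PXT1_K118R, and a fold of 1.16 (0.99 to 1.37) for S_PXT1 over WT. PSMD11, a scaffold subunit of the lid, lay between 736 CPM in PMSCV and 936 CPM in S_PXT1_K118R, and PSMD2, a large subunit of the base, between 523 CPM in PMSCV and 619 CPM in WT_K118R.

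Of the ATPases of the base, PSMC6 (chromosome 14, 52707172 to 52728587) had the most reads. It had 61 counts with PMSCV, 86 with S_PXT1, 68 with S_PXT1_K118R, 93 with WT and 113 with WT_K118R, or 217, 335, 267, 272 and 335 CPM. PMSCV was the lowest, and S_PXT1 was 1.55-fold over it (1.10 to 2.18). PSMC5, another ATPase, lay between 102 and 145 CPM, and PSMD1, the base scaffold, between 83 CPM in S_PXT1_K118R and 151 CPM in WT_K118R, at 0.59-fold for S_PXT1_K118R over S_PXT1 (0.33 to 1.04). PSMD10 (gankyrin), the best covered of the chaperones that assemble the base, had 13, 14, 12, 20 and 18 counts. The 6 ATPases summed to 134, 131, 109, 149 and 198 counts in PMSCV, S_PXT1, S_PXT1_K118R, WT and WT_K118R. WT_K118R was 1.35-fold over WT (1.08 to 1.68), and S_PXT1_K118R was at 0.84-fold of S_PXT1 (0.64 to 1.09). The ATPase sum was not among the planned sums, which were those of core, cap and activators. Whether its K118R folds differ between the backgrounds was not tested, nor was the part of tissue reads, which differ between WT and WT_K118R.

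All 20 cap genes summed to 846 counts with PMSCV, 848 with S_PXT1, 852 with S_PXT1_K118R, 1072 with WT and 1144 with WT_K118R. The fold was 1.10 for S_PXT1 over PMSCV (0.998 to 1.21), 1.04 for WT over PMSCV (0.95 to 1.14), 1.05 for S_PXT1 over WT (0.96 to 1.16), 1.01 for S_PXT1_K118R over S_PXT1 (0.92 to 1.12) and 1.08 for WT_K118R over WT (0.99 to 1.18). These 5 intervals include 1. Over PMSCV the cap was at 1.11 with S_PXT1_K118R (1.01 to 1.23) and at 1.13 with WT_K118R (1.03 to 1.23), both with intervals above 1. The well-covered cap genes alone were at 1.21 (1.10 to 1.34) and 1.16 (1.06 to 1.28) in the same libraries. All genes of the table whose mean reached 20 counts summed to 1.14-fold and 1.12-fold of PMSCV there. Cap genes under that mean were at 0.48 and 0.90, beside 0.49 and 0.91 for all genes under it. A rise of the cap beyond that of all genes was not tested.

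**Figure D3:**
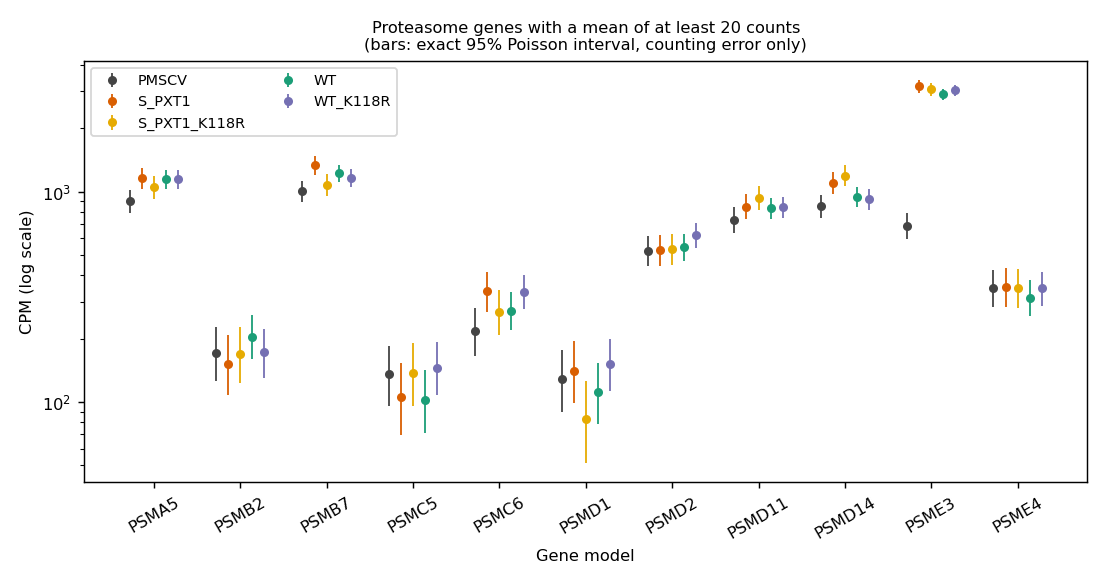
Levels in CPM (y axis, log scale) of the 11 proteasome genes whose mean reached 20 counts (x axis), 1 point a library, with exact 95% Poisson intervals. The points of each gene lie within 2-fold of each other except for PSME3, whose PMSCV point is at 690 CPM and whose others are at 2907 to 3173 CPM.

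Of the 11 well-covered proteasome genes, PSME3 alone was past 2-fold in any of the 5 comparisons. With S_PXT1 over PMSCV it made the count 1 of 11, where 11.3% of all 1547 genes that pass the same minimum were past 2-fold. The count was likewise 1 of 11 with WT over PMSCV, where 5.43% of such genes were past it. For the contrast of S_PXT1 with WT the count was 0 of 11 against 10.2% of such genes, and for K118R it was 0 of 11 in the S_PXT1 background against 7.69% and 0 of 11 in the WT background against 5.24%. A share of 1 or 0 in 11 cannot be told from these backgrounds. The median log2 ratio of the 11 genes was 0.21 for S_PXT1 over PMSCV and 0.18 for WT over PMSCV, beside 0.20 and 0.11 over all 1547 genes. It was 0.13, 0.00 and 0.06 in the other 3 comparisons, beside 0.07, -0.03 and 0.00.

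**Figure D4:**
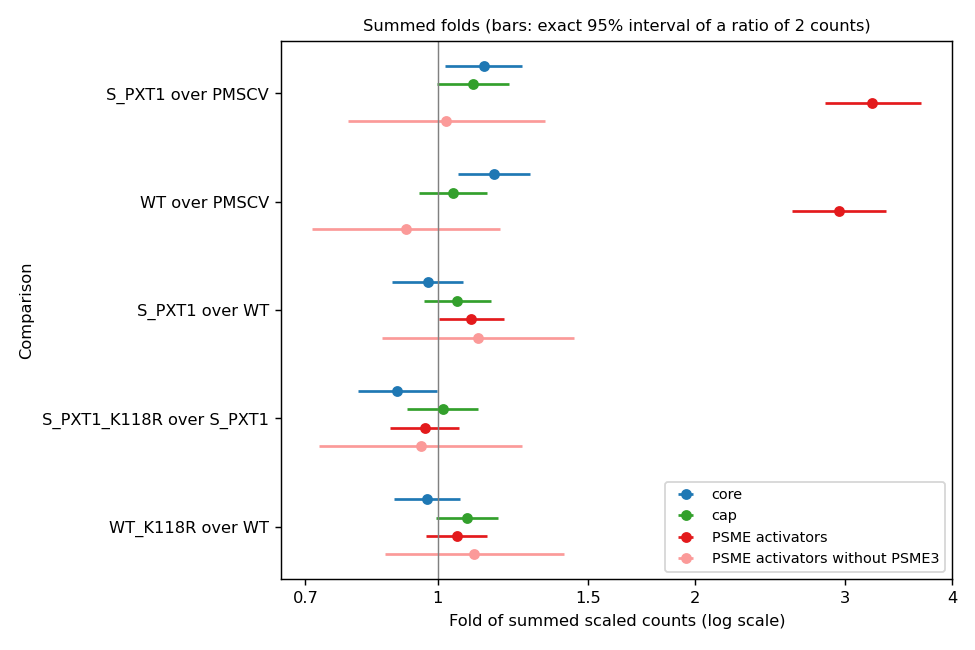
Fold of the summed scaled counts (x axis, log scale) in the 5 comparisons (y axis) for the core, the cap, the PSME activators, and the activators without PSME3, with exact 95% intervals as bars. The activators are at 3.23 and 2.95 in the comparisons with PMSCV and at 1.02 and 0.92 there without PSME3, and the core and cap lie between 0.90 and 1.16.

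The sparse genes followed another pattern. The 37 proteasome genes with a mean under 20 counts summed to 293 counts with PMSCV, 153 with S_PXT1, 146 with S_PXT1_K118R, 290 with WT and 307 with WT_K118R, or 1042, 596, 574, 848 and 910 CPM. Both S_PXT1 libraries were lower than the other 3, and WT was below PMSCV. The fold was 0.57 for S_PXT1 over PMSCV (0.47 to 0.70), 0.81 for WT over PMSCV (0.69 to 0.96), 0.70 for S_PXT1 over WT (0.57 to 0.86), 0.96 for S_PXT1_K118R over S_PXT1 (0.76 to 1.22) and 1.07 for WT_K118R over WT (0.91 to 1.26). The sparse genes of the core were at 0.51 (0.37 to 0.69) and those of the cap at 0.60 (0.44 to 0.82) for S_PXT1 over PMSCV, whereas their well-covered genes were at 1.28 (1.14 to 1.43) and 1.18 (1.06 to 1.31). The mean that makes this split includes the libraries compared, so a gene low in the S_PXT1 pair falls more easily among the sparse genes. PSMA7 had 20, 25 and 23 counts with PMSCV, WT and WT_K118R but a mean of 15.8. The part of the split in the opposed folds was not tested.

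The whole table, split by the same mean and so with the same limit, divided in the same way. All genes with a mean under 20 counts summed to 0.51-fold with S_PXT1 over PMSCV (0.50 to 0.52) and 0.55-fold over WT (0.54 to 0.56), and WT was at 0.93-fold of PMSCV (0.91 to 0.94). The tissue markers were also low in both S_PXT1 libraries, with 20 and 24 of the 29 at 0 counts there, against 3 in PMSCV, 0 in WT and 8 in WT_K118R. Their part in the counts of sparse proteasome genes was not tested. Of the 23 proteasome genes with a mean of 5 to under 20 counts, 7 were at least 2-fold lower with S_PXT1 than with PMSCV and 0 higher, where 39.8% of all genes in that range were lower. With WT over PMSCV 6 of the 23 were lower, where 11.1% of all genes in that range were. Past 2-fold in either direction were 7 of the 23 for S_PXT1 over PMSCV, 7 for WT over PMSCV and 7 for S_PXT1 over WT, beside 44.5%, 20.2% and 42% of all genes in that range. For K118R it was 4 of the 23 in each background, beside 23.7% with S_PXT1 and 20.5% with WT.

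Among proteasome genes chosen by a mean over all 5 libraries, those at 0 were more frequent in the S_PXT1 pair. Of 30 proteasome genes with a mean of 1 to under 20 counts, 6 were at 0 in S_PXT1 and 10 in S_PXT1_K118R, where 41.2% and 44% of all genes in that range were at 0. In PMSCV, WT and WT_K118R 0, 0 and 1 of the 30 were at 0, against 9.95%, 8.75% and 9.92%. These sparse genes were named after their values were seen. PSMA7, an alpha subunit, had 20 counts with PMSCV, 0 with S_PXT1, 11 with S_PXT1_K118R, 25 with WT and 23 with WT_K118R. With its 0 set to the floor of 3 counts, it was 6.08-fold lower with S_PXT1 than with PMSCV. The exact 95% interval of the ratio without that floor reaches up to 0.22, so counting error allows a smaller difference than 6.08-fold. PSMD8, a lid subunit, had 12, 0, 0, 7 and 10 counts, and was 3.65-fold lower with S_PXT1 than with PMSCV at the same floor. The exact interval of its ratio without the floor reaches up to 0.39, so counting error allows a smaller difference here too. PSMA3, an alpha subunit, had 12, 1, 4, 6 and 11 counts, a ratio of 0.09 for S_PXT1 over PMSCV (0.0021 to 0.62).

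**Figure D5:**
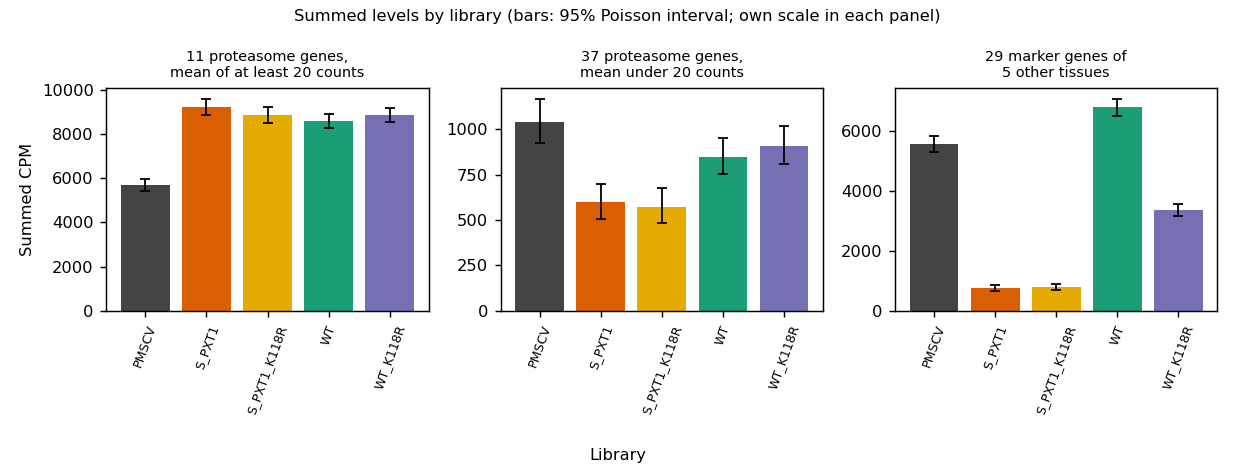
Summed levels in CPM (y axis, own scale in each panel) by library (x axis) of the 11 well-covered and the 37 sparse proteasome genes and of 29 marker genes of 5 other tissues, with 95% Poisson intervals. The sparse genes are at 596 and 574 CPM in the S_PXT1 pair and at 848 to 1042 CPM elsewhere, and the markers are low in the same pair, while the well-covered genes are lowest in PMSCV, where PSME3 is low. Without PSME3 the other 47 genes together are at 1.05-fold to 1.11-fold of PMSCV in the other 4 libraries.

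The inhibitor and the assembly chaperones were all sparse. PSMF1 (PI31), first described as an inhibitor of the core, had 7 counts with PMSCV, 1 with S_PXT1, 1 with S_PXT1_K118R, 8 with WT and 9 with WT_K118R. Its S_PXT1 pair was low as for the sparse genes at large, and the ratio of S_PXT1 over PMSCV was 0.16 with an interval of 0.0035 to 1.22 that includes 1. PSMG1 and PSMG2, which pair to guide the assembly of the alpha ring, had at most 2 and 5 counts in any library, and PSMG3 and PSMG4 had at most 2 and 1.

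Some reads may have been placed on pseudogene copies. PSMC1, an ATPase of the base, had 5, 1, 0, 2 and 3 counts in PMSCV, S_PXT1, S_PXT1_K118R, WT and WT_K118R, whereas its 12 pseudogene models together had 23, 19, 18, 25 and 28. PSMA6 had 4, 2, 1, 15 and 12 counts, and its 3 pseudogene models 14, 9, 12, 13 and 16. The low counts of these 2 genes in the S_PXT1 pair are therefore uncertain. They were named after their values were seen. PSME3, PSMA5 and PSMD11 had no pseudogene model named after them, PSMB7 had 1 with a single count, and PSMD14 had 1 with none.

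The rest of the pathway was followed in 31 genes outside the rule, from ubiquitin and its activating enzymes to shuttle factors, the VCP segregase and the factors that switch on proteasome genes. Of these, 12 had a mean of at least 20 counts. With WT over PMSCV and with WT_K118R over WT 1 of the 12 was past 2-fold, higher in both, and in the other 3 comparisons 0 of the 12 were past 2-fold in either direction. The backgrounds are those given for the 11 proteasome genes. Their median log2 ratio was 0.22 for S_PXT1 over PMSCV, 0.05 for WT over PMSCV and -0.01 for S_PXT1 over WT. For K118R it was -0.22 in the S_PXT1 background and -0.01 in the WT background.

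NFE2L1, the transcription factor that raises proteasome genes when proteasome activity is short (chromosome 17, 48048329 to 48061487), was high in 1 library. It had 16 counts with PMSCV, 27 with S_PXT1, 23 with S_PXT1_K118R, 40 with WT and 111 with WT_K118R, or 56.9, 105, 90.4, 117 and 329 CPM. WT_K118R was 2.81-fold over WT (1.94 to 4.14) and WT was 2.06-fold over PMSCV (1.13 to 3.93), while S_PXT1_K118R was at 0.86-fold of S_PXT1 (0.47 to 1.56). In WT_K118R over WT the summed core was at 0.97 and the summed cap at 1.08 in the same 2 libraries. Whether the RNA level of NFE2L1 bears on these sums was not tested. The summed tissue markers were at 0.49-fold in WT_K118R over WT, and their part in the NFE2L1 counts was not tested. No other model on its strand overlaps NFE2L1.

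UBB, a polyubiquitin gene, had 39 counts with PMSCV, 20 with S_PXT1, 21 with S_PXT1_K118R, 34 with WT and 52 with WT_K118R. The S_PXT1 pair was the lowest, at 0.56-fold for S_PXT1 over PMSCV (0.31 to 0.99), which did not pass 2-fold. USP14, a deubiquitinase that docks on the cap, was at 1.33-fold with S_PXT1 (1.04 to 1.69) and 1.44-fold with WT (1.15 to 1.80) over PMSCV. UBB and USP14 were named after their values were seen. The tissue markers are low in the same pair as UBB, and their part in its counts was not tested.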

How the data were processed

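Raw read counts per gene and FPKM values of the 5 libraries stand in a single deposited table, per the file headers. FastQC, HISAT2 2.2.1 and cutadapt 1.9 are named, without their roles, per the submitters' processing notes. Which counter, strand setting, build and annotation were used was not given in the sources used here. Of the FPKM values above 0, 99.99% matched the count after division by a length for each gene and a factor for each library (tolerance 0.01, log2). There were 0 value columns without a library.

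Library sizes were scaled by TMM in edgeR 4.0.16 (R 4.3.3) over all genes. Folds are ratios of scaled counts with no pseudocount. Their 95% intervals are Clopper-Pearson intervals of 2 counts (scipy 1.17.1). A pair of counts of 20 each gives 0.51 to 1.96 and a pair of 300 each gives 0.85 to 1.18. A 0 was set to 3 counts for thresholds and for folds stated at that floor, with no fold where both were at or under 3. The intervals cover counting error only and not differences between cultures or libraries of a group, since each group has 1 library. They treat reads as independent counts. Reads that carry no molecular identifier can be copies of 1 molecule, which these intervals do not allow for. Scaling, folds and intervals were tested on simulated Poisson counts from a common profile, with known changes in WT alone. That simulation held no copied reads and no shift like the low sparse genes of the S_PXT1 pair. It cannot show how the scaling and intervals hold for these libraries. Values in every library are given for genes past 2-fold in a comparison whose mean reached 20 counts and for the best covered gene of each role. The genes and lists were chosen with earlier results of these data known. Alternatives were DESeq2 1.42.0 size factors, total counts, FPKM, overlapping models summed, other count minimums and a 1.5-fold threshold. Splits at 20 counts, pseudogene sums and the minimum of 5 counts were chosen after seeing the data. A gene of each of 2 lists is not reported here.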

Additional observations from a re-analysis of the deposited data

How the results depend on the processing

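The depth limited most members, since 37 of 48 had a mean under 20 counts, and no library had a replicate. DESeq2 size factors, total counts, overlapping models summed and pseudogene rows added each kept all 15 summed folds within their main intervals, although some intervals then fell on the other side of 1. With total counts the core's intervals over PMSCV include 1 (0.958 to 1.18 for S_PXT1 and 0.974 to 1.18 for WT). For S_PXT1_K118R over S_PXT1 the core's upper bound rose from 0.998 to 1.003 with DESeq2 size factors and with pseudogene rows, 1.01 with overlapping models and 1.02 with total counts. The cap for S_PXT1 over PMSCV was above 1 with DESeq2 size factors (1.04 to 1.26) and with overlapping models (1.03 to 1.19), as was the cap for WT over PMSCV with overlapping models (1.01 to 1.16). With DESeq2 size factors it was also above 1 for S_PXT1 over WT (1.01 to 1.21) and WT_K118R over WT (1.01 to 1.19). With FPKM 12 did, and the cap was at 0.996 for S_PXT1 over PMSCV and 0.934 for WT over PMSCV, and the activators at 2.60 for WT over PMSCV (the cause was not tested). Without PSME3 the activators were at 1.02 for S_PXT1 over PMSCV and 0.92 for WT over PMSCV, since PSME3 held most of their counts.

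With only genes of a mean of at least 20 counts, the core was at 1.28 for S_PXT1 over PMSCV. With only genes under that mean, the direction of the core was opposite at 0.51 for S_PXT1 over PMSCV (0.37 to 0.69). It was also opposite at 0.83 for WT over PMSCV (0.65 to 1.07) and 1.22 for S_PXT1_K118R over S_PXT1 (0.86 to 1.73). Both of these intervals include 1. The core was at 0.61 for S_PXT1 over WT (0.44 to 0.83). That mean includes the libraries compared, so a gene low in 1 of them falls more easily under it. The cap was then at 0.60 for S_PXT1 over PMSCV (0.44 to 0.82) and 0.78 for WT over PMSCV (0.60 to 1.02). It was at 0.77 for S_PXT1 over WT (0.56 to 1.05) and 0.80 for S_PXT1_K118R over S_PXT1 (0.55 to 1.18). Of these cap intervals, only that for S_PXT1 over PMSCV leaves out 1.

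Members past 2-fold numbered 1 against PMSCV for both S_PXT1 and WT, and 0 in the other 3 comparisons. With no filter they numbered 9 (S_PXT1 with PMSCV), 11 (WT with PMSCV), 8 (S_PXT1 with WT), 4 (K118R in the S_PXT1 background) and 5 (K118R in the WT background), of 45 members with counts. Of all 16237 genes with counts, 252 were 2-fold higher and 1672 lower for S_PXT1 over PMSCV, and 776 and 1165 for WT over PMSCV. These were 236 and 1543 for S_PXT1 over WT, 462 and 359 for K118R with S_PXT1, and 1035 and 851 with WT. With a minimum mean of 5 counts they numbered 8, 8, 7, 4 and 4 of 34 in the same order, since sparse genes then enter. Of all 3540 genes at that minimum, those 2-fold higher numbered 147, 224, 134, 317 and 240 in that order. Those 2-fold lower numbered 915, 262, 862, 275 and 249. At 1.5-fold they numbered 2 of 11 in S_PXT1 over PMSCV and 1 of 11 in S_PXT1_K118R over S_PXT1. The share of all genes past 1.5-fold is not given, so these counts are not set against a background. No paired analysis was possible because the labels give no replicate numbers. A fit of K118R over both backgrounds was not run. No replicate could be left out, since each group has 1 library.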
